A study of Arabidopsis thaliana with 30 samples.

Results

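The data set apart here are 6 RNA-seq libraries of hypocotyl explants of Arabidopsis thaliana, the Col-0 wild type at 1 h and at 0.5 h after cutting, with 3 libraries at each time. They were chosen by genotype and time alone and are 6 of the 30 libraries of the series. The explants came from seedlings grown in darkness for 7 days on MS medium, whose hypocotyls were cut with a scalpel. Each library is a biological replicate made from around 50 pooled explants. The same pair of times in the hsfa1abd-2 mutant, also in the Col-0 background and also cut, gives another 6 libraries that serve as a comparison. Each genotype was further sampled at 0, 3 and 24 h. No uncut tissue of the same clock times was analysed here, so effects of cutting and of the clock hour cannot be told apart. The labels do not give the alleles of the mutant, and the 0 h libraries are labelled as wounded too. Whole hypocotyl tissue was used, so in every value below fewer cells of a type and less RNA per cell cannot be told apart.

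Cutting a plant organ sets off a fast response at the wound, in which calcium, electrical and jasmonate signals act within minutes. Transcripts of the first wave, many of them for transcription factors and signalling proteins, are made at once and are often short-lived, and the transcripts of their targets follow. Class A1 heat shock factors, for which the hsfa1abd-2 mutant is named, are activators that start the transcription of chaperone genes under heat and other stress. The step from 0.5 to 1 h asks which transcripts gained and which lost while that first wave was passing, and it does so without the 0 h libraries as a baseline.

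The rows of the deposited count table carry no gene identifier, so no gene, pathway or marker of a cell type could be named or tested. The label of the tissue and the loss of the HSFA1 genes could therefore not be checked either. Rows are called features and are numbered from the first data row, and 18526 of 36635 had enough counts to be tested. Wild-type libraries of the step held 3367849 to 3791358 counts, with 1 exception. The 0.5 h replicate 1 library held 578179, which is 16.6% of the median of the other 5. A feature with 3 counts stands at 5.19 CPM, counts scaled to a common library total, in that library and at 0.791 to 0.891 CPM in the others of the step. Over features, log2 CPM of the 1 h replicates gave r of 0.977 to 0.978. At 0.5 h it was 0.964 for replicates 2 and 3, and 0.929 and 0.923 for pairs with the shallow library. Between a 1 h and a 0.5 h library it was 0.885 to 0.943. In both genotypes every pair of replicates differed by more than sampling noise, the chi-square divided by its degrees of freedom being 1.94 to 14.1.

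Many transcripts moved in the wild type within these 30 minutes. Between 1 h and 0.5 h, 3810 features differed (20.6% of those tested; edgeR's quasi-likelihood test over 30 libraries, Benjamini-Hochberg adjusted p under 0.05). Of these 1981 were higher at 1 h (10.7%) and 1829 were lower (9.87%), so that rises made up 52.0% of the calls. Changes of at least 2-fold leaned to rises, with 909 features higher (4.91%) and 655 lower (3.54%). Below, these sets are called the 2-fold risers and the 2-fold fallers. The remaining 2246 calls were under 2-fold. The median log2 fold was 1.46 among the 2-fold risers and -1.41 among the 2-fold fallers, against -0.02 over all tested features. Without the shallow library 3421 features were called, with 863 higher and 632 lower by at least 2-fold. With every library thinned to its depth 1729 were called, and a test against a fold of 1.5 called 1077 at full depth.

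Large steps were rarer and more often upward. At least 4-fold changes numbered 205 higher and 104 lower, and at least 8-fold changes 68 higher and 19 lower. Most features at the far end of the range, though not all, were almost silent on the low side. Of the 68 features, 43 had under 10 counts over the 3 libraries at 0.5 h, which include the shallow one. Of the 19, 11 had under 10 over those at 1 h. The fitted fold of such a feature varies with the prior count used and sets no limit. At the limit, 27 tested features had no count at 0.5 h, of which 7 were called higher at 1 h, and 30 had none at 1 h, of which 1 was called lower. Against a floor of 3 counts over the group, the 7 were at least 2.53-fold to at least 9.36-fold higher at 1 h, where their pooled levels were 1.01 to 3.73 CPM. The single one was at least 3.07-fold lower at 1 h, against 0.929 CPM at 0.5 h.

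The replicates of the 2 times were apart for most of the large changes. All 3 libraries at 1 h lay above all 3 at 0.5 h for 885 of the 909 risers, and below them for 595 of the 655 fallers. Over all tested features the libraries were apart in this way for 17.4% upward and 15.8% downward. The sets were chosen in these same libraries, so their separation follows largely from the choice and is given as a description. The 24 risers and 60 fallers with overlapping replicates were called although at least 1 library of a time reached into the range of the other.

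**Figure D1:**
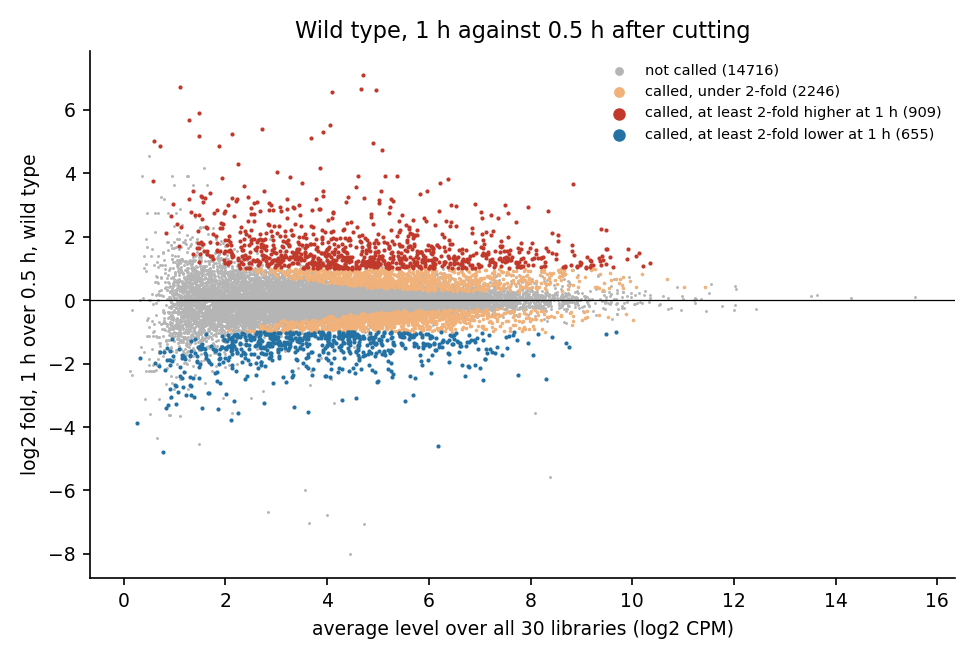
Each point is 1 of 18526 tested features, with its average level over all 30 libraries in log2 CPM on the horizontal axis and its log2 fold in the wild type, 1 h over 0.5 h, on the vertical axis. Features at least 2-fold higher (909) and lower (655) and those called under 2-fold (2246) are coloured. The 7 points below -5 were not called and are grey.

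The share of features called rose with their level. The features were divided into 5 equal groups by their average level over all 30 libraries. Of the lowest group (1.08 to 6.36 CPM) 9.04% were called, and of the highest (57.4 to 48800 CPM) 31.3%. The median size of a called change went the other way, at 1.69 log2 units in the lowest group and 0.70 in the highest. Risers and fallers were not spread alike over the levels. The lowest group held 143 of the 2-fold risers and 180 of the 2-fold fallers, and the highest group 256 risers and 95 fallers. The average includes the step itself and the later times, at which the risers stayed high. The course of each set thus enters its place among the levels, and these counts are a description only. In the shallow library the median feature of the lowest group had 1 count and that of the highest 60, so at low levels the 0.5 h values rest mainly on replicates 2 and 3.

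The change was large enough to shift the make-up of the libraries. The called risers had a median level of 47.4 CPM at 1 h, against 24.7 CPM at 0.5 h, and together they took 21.4% to 22.3% of all counts at 1 h and 11.8% to 12.1% at 0.5 h. The called fallers had a median of 22.4 CPM at 1 h, against 38.7 CPM at 0.5 h, and took 7.77% to 8.62% of counts at 1 h and 14.1% to 15.9% at 0.5 h. The choice of the sets in these same libraries fixes the direction of those shares. In the mutant, whose libraries took no part in the choice, the risers held 20.1% to 21.2% of counts at 1 h and 11.8% to 13.0% at 0.5 h. The fallers held 7.30% to 8.06% there at 1 h and 12% to 14.2% at 0.5 h. The gain was shared by many features, since the 10 with the largest gain in CPM made up 7.35% of the summed gain and the 100 largest 39.8%. For the losses these shares were 9.57% and 39.4%.

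Measures of whole libraries were compared over 3 libraries against 3, a design in which the exact test cannot go below p = 0.1. The 100 most abundant features took 23.7% ± 0.285 of counts at 1 h and 23.6% ± 0.879 at 0.5 h (SD, n = 3 each, two-sided exact permutation p = 0.9, adjusted p = 0.9 over 3 such measures). With all libraries thinned to 578179 counts, 18072, 18133 and 18074 features had a count at 1 h, against 18223, 18284 and 18331 at 0.5 h. Libraries of the 2 times did not overlap in this number, and the difference in means, 1 h minus 0.5 h, was -186 (exact permutation p = 0.1, adjusted p = 0.3).

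Leading features were taken by a rule that asks for a called change of at least 2-fold, replicates apart, at least 5 CPM at one of the times, at least 10 counts over each group and a call that holds without the shallow library. It was met by 748 features that rose and 516 that fell. The 12 highest folds were 3.23 to 3.92 on the log2 scale, in features at 17.9 to 626 CPM at 1 h and 1.80 to 45.0 CPM at 0.5 h. The 12 lowest were -2.92 to -3.57, in features at 0.988 to 24.5 CPM at 1 h and 8.10 to 224 CPM at 0.5 h. All 24 were also called in the same direction in the mutant step, in which 11.6% of all tested features were called higher and 8.95% lower. In the mutant, 10 of the 12 leading fallers were called higher at 0.5 h than at 0 h, against 14.6% of all tested features. Of the 12 leading risers 2 were, a share near that of all features. The 2 leading features of each direction are given in full.

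Feature 12078 was as low at 0.5 h as at 0 h, and high at 1 h. It had 47.1, 28.9 and 41.0 CPM in the wild type at 1 h, against 5.18, 1.93 and 2.69 CPM at 0.5 h. Every 1 h library was thus far above every 0.5 h library, of which the highest, 5.18 CPM, rests on 3 counts in the shallow library. By edgeR's quasi-likelihood test the log2 fold was 3.92 with an SE of 0.335 (adjusted p = 3.82e-10). Outside the step its level was 3.62 ± 1.05 CPM at 0 h, reached 170 ± 21.8 CPM at 3 h and had returned to 4.08 ± 1.26 CPM by 24 h (SD, n = 3 each). In the mutant it had 35.3, 30.3 and 27 CPM at 1 h, against 6.98, 7.33 and 6.86 CPM at 0.5 h, with a log2 fold of 2.12 (SE 0.257). The difference between the steps, mutant minus wild type, was -1.80 (SE 0.476, adjusted p = 0.589) and did not pass the test.

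Feature 23695 was at its highest mean level at 1 h. It had 116, 66.7 and 131 CPM in the wild type at 1 h, against 6.90, 7.18 and 6.59 CPM at 0.5 h. The 1 h libraries differed among themselves but all lay well above the 0.5 h libraries. The 0.5 h values were close to each other, but the 6.90 CPM of the shallow library rests on 4 counts. The log2 fold was 3.91 with an SE of 0.364 (adjusted p = 1.47e-08, same test). Its level was 4.30 ± 0.998 CPM at 0 h, still 66.8 ± 20.0 CPM at 3 h and down to 13.0 ± 2.40 CPM by 24 h (SD, n = 3 each). The mutant showed 97.2, 42.6 and 76.3 CPM at 1 h, against 5.77, 5.81 and 7.96 CPM at 0.5 h, a log2 fold of 3.44 (SE 0.340).

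Feature 2385 was nearly silent at 0 h, present at 0.5 h and low again at 1 h. It had 1.71, 0.943 and 0.308 CPM at 1 h, against 6.90, 14.6 and 11.7 CPM at 0.5 h. All 1 h libraries were low, and the lowest value at 0.5 h came from the shallow library with 4 counts. The log2 fold was -3.57 with an SE of 0.423 (adjusted p = 9.63e-08, same test). At 0 h each wild-type library had 1 count. At 3 h the level was 3.67 ± 1.18 CPM (SD, n = 3). In the mutant it stood at 3.15, 2.04 and 3.22 CPM at 1 h, against 11.8, 12.8 and 12.6 CPM at 0.5 h, a log2 fold of -2.15 (SE 0.342).

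Feature 12344 was already present at 0 h, before its fall. It had 1.43, 0.629 and 2.16 CPM at 1 h, against 13.8, 11.6 and 22.5 CPM at 0.5 h, with no overlap, as the rule for leading features asks. The log2 fold was -3.52 with an SE of 0.521 (adjusted p = 1.02e-05, same test). Its level was 21.4 ± 6.71 CPM at 0 h, only 4.70 ± 0.499 CPM at 3 h and as low as 1.35 ± 0.611 CPM by 24 h (SD, n = 3 each). Levels in the mutant were 6.30, 3.79 and 3.86 CPM at 1 h, against 40.7, 17.1 and 36.2 CPM at 0.5 h, a log2 fold of -2.76 (SE 0.379).

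**Figure D2:**
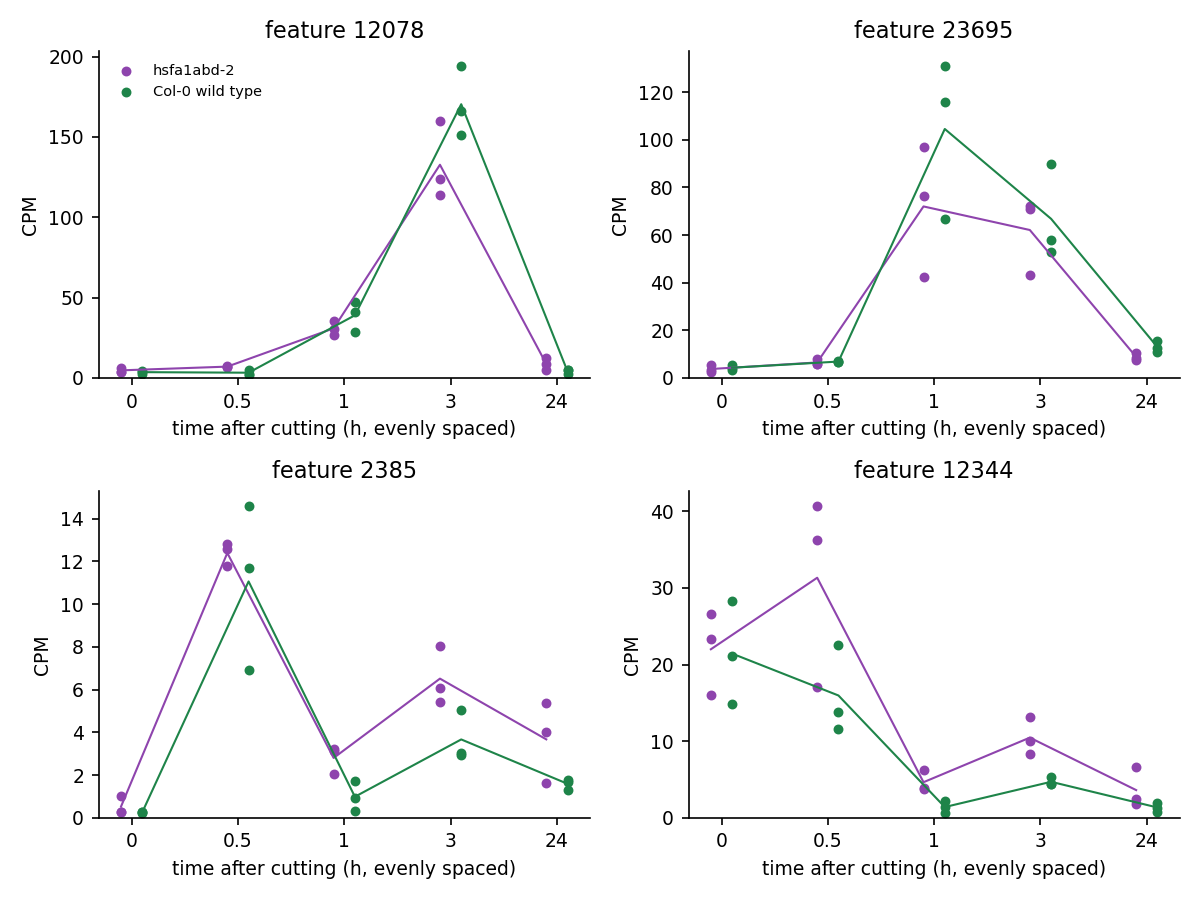
Levels of features 12078, 23695, 2385 and 12344 in CPM (vertical axes) at 0, 0.5, 1, 3 and 24 h after cutting (horizontal axes, evenly spaced). Each point is 1 library, lines join the means of 3, and hsfa1abd-2 stands left of the wild type at each time. The 2 upper features rose and the 2 lower ones fell between 0.5 and 1 h in both genotypes.

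The course of the 2-fold sets over all 5 times showed that risers and fallers were unlike in more than sign. In the wild type the risers averaged 3.38 ± 0.0214 log2 CPM at 0 h and 3.60 ± 0.163 at 0.5 h, then 5.26 ± 0.0513 at 1 h and 5.19 ± 0.0442 at 3 h, and ended with 4.02 ± 0.0607 by 24 h (SD over libraries, n = 3). The mean thus moved little before the step and little from 1 to 3 h. The fallers averaged 3.29 ± 0.0792 at 0 h and 4.65 ± 0.107 at 0.5 h, then 3.26 ± 0.0929 at 1 h and 3.39 ± 0.0726 at 3 h, and ended with 2.76 ± 0.0362 by 24 h. They stood as a peak at 0.5 h, and by 1 h their mean was back at the level of 0 h. The values at 0.5 and 1 h come from the libraries that chose the sets and are given as a description.

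The mutant libraries, which did not choose the sets, gave courses of the same shape. There the wild-type 2-fold risers averaged 3.48 ± 0.0492 log2 CPM at 0 h and 3.84 ± 0.0675 at 0.5 h, then 5.19 ± 0.0483 at 1 h and 5.07 ± 0.00854 at 3 h, and ended with 4.08 ± 0.0102 by 24 h. The wild-type 2-fold fallers averaged 3.17 ± 0.0656 at 0 h and 4.38 ± 0.125 at 0.5 h, then 3.37 ± 0.088 at 1 h and 3.55 ± 0.114 at 3 h, and ended with 2.74 ± 0.0197 by 24 h. The peak at 0.5 h and the plateau from 1 to 3 h were therefore present in both genotypes.

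**Figure D3:**
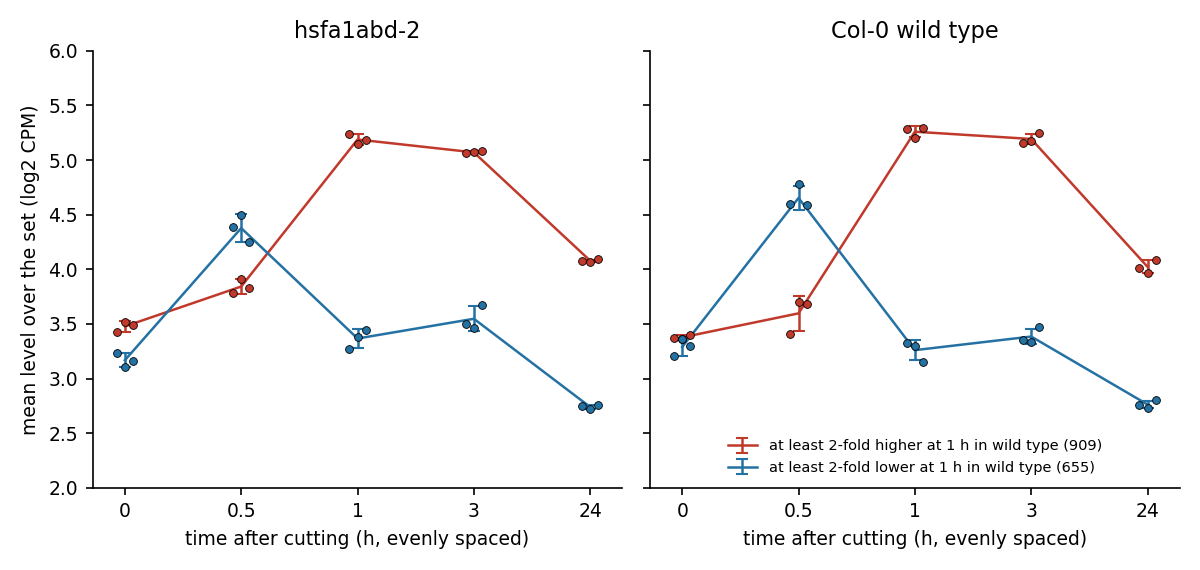
Mean level in log2 CPM (vertical axes) of the 909 features at least 2-fold higher and the 655 at least 2-fold lower at 1 h in the wild type, by time after cutting (horizontal axes, evenly spaced), in hsfa1abd-2 (left) and in the wild type (right). Points are libraries and bars are the mean ± SD of 3. The fallers peak at 0.5 h and the risers reach 5.19 and 5.26 at 1 h in hsfa1abd-2 and the wild type.

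The sets were not uniform, and the first 30 minutes in the mutant, from libraries that did not choose them, split each into 3 groups. Of the 909 risers, 290 (31.9%) had risen between 0 and 0.5 h in the mutant, 495 (54.5%) had not been called there and 124 (13.6%) had fallen. Of the 655 fallers, 331 (50.5%) had risen, 250 (38.2%) had not been called and 74 (11.3%) had fallen. Over all tested features 14.6% rose and 8.30% fell in that contrast. The share with an early rise was larger among the fallers than among the risers, a difference that was not tested.

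Followed in the wild type, the 3 groups of risers took different courses. The 290 with an early rise averaged 2.98 ± 0.0328 log2 CPM at 0 h and 4.66 ± 0.155 at 0.5 h, then 6.29 ± 0.0642 at 1 h and 5.87 ± 0.0751 at 3 h, and ended with 4.09 ± 0.0197 by 24 h. The 495 with no early call were at 3.22 ± 0.0345 at 0 h and 3.01 ± 0.184 at 0.5 h, then at 4.68 ± 0.0551 at 1 h and 4.83 ± 0.0447 at 3 h. The 124 with an early fall were at 4.94 ± 0.0928 at 0 h, dipped to 3.45 ± 0.259 at 0.5 h and were at 5.16 ± 0.0802 at 1 h. The group means thus showed a continued climb, a start and a return. The wild-type values at 0.5 and 1 h come from the libraries that chose the risers. The rise between them therefore follows from the choice in every group and is a description.

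The fallers were likewise mixed, with a peak in one group mean and declines in the others. The 331 with an early rise averaged 2.62 ± 0.0795 log2 CPM at 0 h and 5.47 ± 0.118 at 0.5 h, then 3.92 ± 0.142 at 1 h and 3.91 ± 0.139 at 3 h, and ended with 2.70 ± 0.0716 by 24 h. Their mean at 1 h was still above that of 0 h. The 250 with no early call were at 3.70 ± 0.111 at 0 h, 3.73 ± 0.116 at 0.5 h and 2.50 ± 0.0479 at 1 h. The 74 with an early fall were at 4.91 ± 0.0611 at 0 h, lower with 4.12 ± 0.0988 at 0.5 h and lower again with 2.88 ± 0.0306 at 1 h. By 24 h they had a mean of 3.52 ± 0.0702 (SD over libraries, n = 3 throughout). As for the risers, the fall from 0.5 to 1 h in each group follows from the choice of the set in these libraries.

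**Figure D4:**
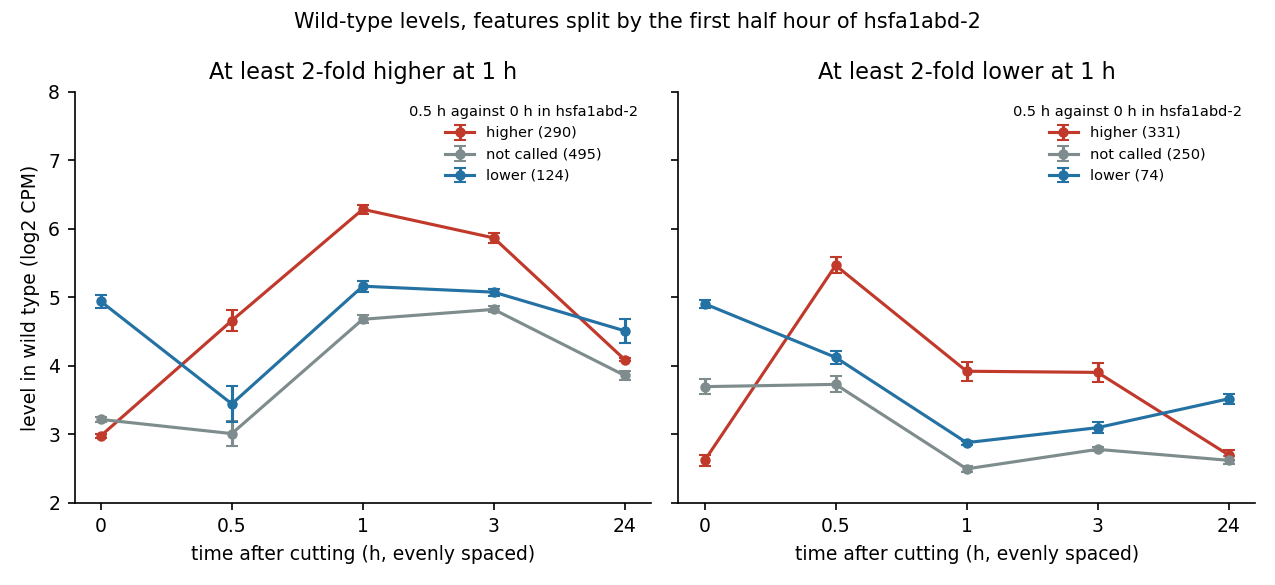
Mean level in the wild type in log2 CPM (vertical axes, ± SD over 3 libraries) by time after cutting (horizontal axes, evenly spaced), for the 2-fold risers (left) and 2-fold fallers (right). Each set is split by whether its features were higher, not called or lower at 0.5 h against 0 h in hsfa1abd-2. The numbers of features, 290, 495 and 124 on the left and 331, 250 and 74 on the right, stand in the keys.

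Contrasts of other wild-type libraries showed what was left of the step later. At 3 h against 0 h, which uses none of the 6 libraries of the step, 654 of the 909 risers were called higher (71.9%, against 25.2% of all tested features) and 31 were called lower (3.41%, against 21.5%). Of the 655 fallers 256 were lower (39.1%), 220 were higher (33.6%) and 179 were not called. Most risers were therefore above their starting level at 3 h, while the fallers were divided. In all, 2799 of the 3810 features called in the step were called at 3 h against 0 h, a contrast in which 46.7% of all tested features were called.

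The later course was downward for most risers. At 24 h against 3 h, 612 of the 909 risers were called lower (67.3%, against 30.0% of all tested features) and 85 higher (9.35%, against 25.9%). Even so, 427 of them (47.0%, against 30.0%) were higher at 24 h than at 0 h and 149 (16.4%, against 25.1%) lower. Among the 655 fallers 307 were lower at 24 h than at 3 h (46.9%) and 121 higher (18.5%). Against 0 h, 255 of the fallers were lower at 24 h (38.9%) and 137 higher (20.9%).

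The same 30 minutes in the hsfa1abd-2 mutant gave nearly the same number of changes in the fit of all 30 libraries. There 3799 features were called (20.5% of those tested), with 2141 higher (11.6%) and 1658 lower (8.95%) at 1 h, and 883 higher (4.77%) and 493 lower (2.66%) by at least 2-fold. Separate fits called fewer in the mutant than in the wild type. With the compared libraries alone they called 2464 in the mutant and 3312 in the wild type. With the 15 libraries of each genotype they called 3129 and 4028. Thinned libraries, in a single fit, gave 1496 in the mutant and 1729 in the wild type. The steps of the genotypes share no library. Of the features called higher, 1442 were common to both, which is 67.4% of the mutant list and 72.8% of the wild-type list. Of those called lower, 1060 were common, 63.9% of the mutant list and 58.0% of the wild-type list. A single feature, number 12771, was called in opposite directions and is named here after its values were seen. It had a log2 fold of 1.27 in the mutant (adjusted p = 0.00529) and -0.67 in the wild type (adjusted p = 0.0103), and the difference itself did not pass the test (adjusted p = 0.163).

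The larger the wild-type step, the more often it was also called in the mutant. Rises of under 2-fold were called in the mutant for 663 of 1072 features (61.8%), those of 2-fold to 4-fold for 597 of 704 (84.8%) and those of at least 4-fold for 182 of 205 (88.8%). For falls the counts were 606 of 1174 (51.6%), 374 of 551 (67.9%) and 80 of 104 (76.9%). The 779 of 909 2-fold risers called higher in the mutant (85.7%) stand against 11.6% of all features, and the 454 of 655 2-fold fallers called lower (69.3%) against 8.95%. No 2-fold riser was called lower in the mutant and no 2-fold faller was called higher by edgeR's quasi-likelihood test. Called or not in the mutant, 3705 of the 3810 features had the same sign in both genotypes (97.2%, against 75.7% of all tested features). Across the 3810 features the log2 folds correlated at r = 0.917, and across all tested features at 0.747, in libraries that share the Col-0 background and a protocol.

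Which genotype had the larger median step depended on where the features were chosen. The medians were close for the sets chosen in the mutant and further apart for those chosen in the wild type. Among the 2-fold risers of the wild type the median log2 fold was 1.27 in the mutant and 1.46 in the wild type. Among the 883 2-fold risers of the mutant it was 1.42 in the mutant and 1.38 in the wild type. For the fallers chosen in the wild type the medians were -1.05 in the mutant and -1.41 in the wild type, and for the 493 chosen in the mutant they were -1.37 in the mutant and -1.35 in the wild type. In each of the 4 sets the larger median was in the genotype that had chosen it.

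Tested directly, no difference between the genotypes in this step passed the test. For the difference, mutant minus wild type, edgeR's quasi-likelihood test called 0 of 18526 features (0% of those tested), with a smallest adjusted p of 0.0609. An unadjusted p under 0.05 was reached by 898 features (4.85%), and DESeq2 called 3, of which 2 had the higher step in the mutant. Leaving out mutant 1 h replicate 1 or wild-type 1 h replicate 2 gave 1 call each. The test does not show that the steps were equal. Over the 3810 features called in the wild type, the 5th and 95th percentiles of the difference were -0.656 and 0.744 log2 units, and for the 2-fold changes the SE of a difference had a median of 0.388.

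**Figure D5:**
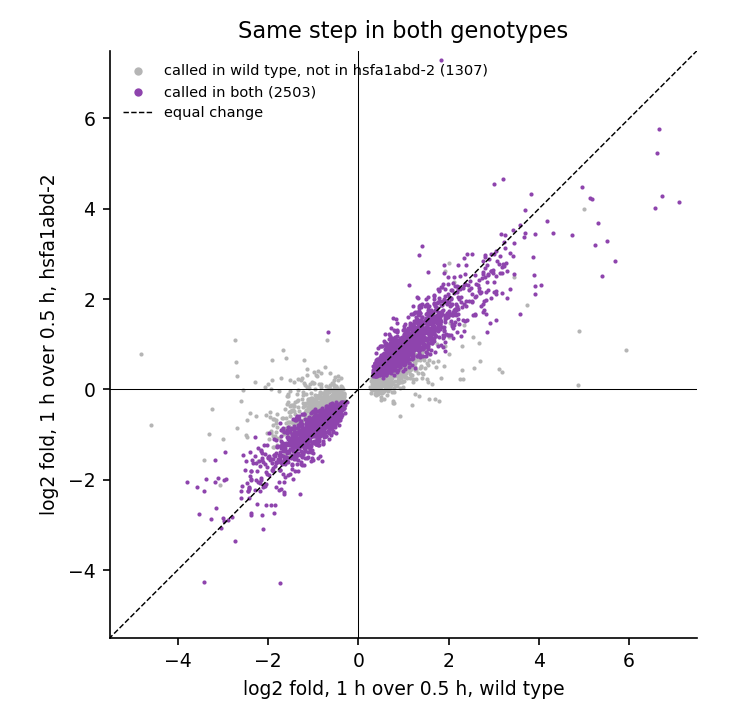
Log2 fold of 1 h over 0.5 h in hsfa1abd-2 (vertical axis) against that in the wild type (horizontal axis) for the 3810 features called in the wild type. Features called in both genotypes (2503) are purple, the others (1307) grey, and the dashed line marks equal change. Nearly all points share their sign, and r is 0.917.

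Sets chosen in one genotype also separated the 1 h from the 0.5 h libraries of the other. With the 2-fold sets of the mutant, the mean level of risers minus that of fallers was 1.62, 1.66 and 1.80 log2 units in wild-type libraries at 1 h, against -1.20, -1.14 and -0.91 at 0.5 h. The wild-type libraries of the 2 times were far apart on this measure, and the shallow library, at -1.20, lay beside replicate 2. A high value was not particular to 1 h, since on the same sets wild-type libraries were at 1.77 to 1.85 at 3 h and at 1.27 to 1.35 at 24 h. With the sets of the wild type, mutant libraries were at 1.97, 1.76 and 1.74 at 1 h, against -0.61, -0.58 and -0.41 at 0.5 h.

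Set among the successive steps of the wild type, this one held the fewest changes of at least 2-fold. From 0 to 0.5 h 9.33% of tested features were higher and 3.68% lower by that much, from 0.5 to 1 h 4.91% and 3.54%, from 1 to 3 h 6.06% and 5.03%, and from 3 to 24 h 11.9% and 16.5%. Neighbouring steps share libraries, the steps differ in length, and the counts were not tested against each other. The steps into and out of 0.5 h include the shallow library and the later ones do not. The steps were not ranked at equal depth.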

How the data were processed

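Per the labels' protocols, total RNA of hypocotyl explants was isolated with a Qiagen RNeasy kit and the Kapa kit for stranded mRNA sequencing was used for the libraries. fastp, STAR and the TAIR10 build are named in the submitters' processing notes. The labels state no versions, and neither how reads were counted (tool, strand) nor which annotation was used. Per the deposited table's values, the authors supplied raw counts per feature and library, with rows that have no identifier. Reads of paralogs, overlapping genes and antisense partners may therefore be shared between rows in ways that cannot be read here.

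Features were kept by filterByExpr (minimum count 10, minimum total 15), which left 18526 features and 99.8% of counts. TMM scaling was used, and a single model with 10 groups was fitted to all 30 libraries in edgeR 4.0.16 (limma 3.58.1, R 4.3.3; robust estimateDisp and glmQLFit, glmQLFTest). P-values were adjusted by Benjamini-Hochberg over all tested features, with a threshold of 0.05. Biological variation between replicates came to a coefficient of 13.1%, and the fit had 20 residual degrees of freedom. An SE is approximate, being the size of the log2 fold over the square root of F. The prior count behind log2 CPM was 2. For single values per library the test was an exact permutation test, two-sided, and thinning to equal depth was binomial. Scaling, filter, tool, fold test, depth, left-out libraries and a replicate block were tried as alternatives, with DESeq2 1.42.0 as the other tool. Counts of 18526 features were simulated for wild type at 1 h against 0.5 h, with 200 changed among those averaging above 5 CPM. Of the 4-fold changes 90.6%, of the 2-fold 75.4% and of the 1.5-fold 23.9% were called. These rates do not cover lower levels, and fewer features were changed than were called in the data. The rule for leading features stands in the report. The comparison, lists and rules were chosen with earlier results of these data known. Whether replicates came from separate sowings is not stated in the labels, so p-values measure the spread between these samples.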

Additional observations from a re-analysis of the deposited data

How the results depend on the processing

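The counts of the wild-type step held under most settings. With 1 library of the step left out in turn, 2780 to 3421 features were called, 842 to 1002 at least 2-fold higher and 544 to 703 at least 2-fold lower. With 1 of the 12 libraries of both steps left out in turn, the mutant step gave 2886 to 3878 calls and the difference between steps 0 to 1. Where the library left out was a mutant one, the mutant step gave 2886 to 3629 calls. The test against a fold of 1.5 gave 1077 calls for the wild-type step and 876 for the mutant step, as it asks for more than a change. With all libraries thinned to the depth of the shallowest, 1729 features were called in the wild type, 432 of them at least 2-fold lower, and 1496 in the mutant. With the sets chosen again in the thinned counts, 453 of the 638 2-fold risers were called the same way in the mutant step. Of the 432 2-fold fallers, 252 were. Of these 638 risers 148, and of these 432 fallers 213, were higher at 0.5 h than at 0 h in the mutant. Of the 1729 features called in the step, 1170 were also called at 3 h against 0 h. Shares over all features were not computed in the thinned counts. Feature 2385 did not pass the filter there. Fits of the compared libraries alone gave 2464 calls in the mutant step and 3312 in the wild-type step. Fits of the 15 libraries of each genotype gave 3129 and 4028. The cause of these gaps between the genotypes was not tested. DESeq2 called 3 features in the difference between steps.

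Same-numbered wild-type libraries of 1 h and 0.5 h did not deviate together (r = 0.0439, -0.061 and 0.0181). With the replicate block in the fit of all libraries 3769 features were called in the wild-type step, 3757 in the mutant step and 0 in the difference. In fits of the compared libraries alone the block gave 3133, 2112 and 0. Of the recomputed values 230 counted as close to the reported one and 15, all given above, did not. A count was close if within 1.5-fold of the reported one, and a reported 0 only if it stayed 0. The log2 fold of a leading feature was close if its sign and call held. A library measure was close if it moved by less than the SD of the wild-type 0.5 h libraries. By that rule the difference in the share of the 100 most abundant features was close, although 0.0355 became -0.107 without the shallow library. The overlaps with the mutant and with 3 h, and the library measures, were recomputed under settings chosen after seeing the data. Over its settings the log2 fold of feature 12344 ranged from -3.93 to -2.87 and that of feature 12078 from 3.64 to 4.11, with the call kept. The depth of the shallow library limits what can be said of features under about 5.19 CPM at 0.5 h.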

Other observations

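The largest falls in the wild-type step were not called. Chosen after their values were seen, 7 features had log2 folds between -8 and -5.58 with adjusted p of 0.102 to 0.493 by edgeR's quasi-likelihood test, and no called feature fell below -5. Summed over the 7, the wild-type libraries held 0, 0.314 and 0.924 CPM at 1 h, against 86.3, 78.8 and 4.79 CPM at 0.5 h. By this sum, replicate 3 at 0.5 h was near the 1 h libraries, and the other 2 were far above them. The sum of replicate 1 rests on 50 counts in the shallow library. Feature by feature, replicate 2 held 61.8% to 100% of the 0.5 h counts. In the mutant the sum was above 0 in every library. It was 190 to 1140 CPM at 0 h, 653 to 2380 CPM at 0.5 h and 239 to 662 CPM at 1 h. Later it was 131 to 2720 CPM at 3 h and 34.8 to 59.9 CPM at 24 h. In the wild type the sum was uneven at other times as well, with 1.97, 694 and 0 CPM at 0 h, 1.47, 0.251 and 213 CPM at 3 h and 1.84, 0.253 and 0 CPM at 24 h. The features carry no identifier, so what they are could not be read.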
